A study of Mus musculus with 2 samples.

Results

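Dividing early B-lineage cells were the cells that held at least 10 transcripts of the B-lineage genes Vpreb1, Vpreb3, Igll1 and Ebf1 together, at least 3 transcripts of the division genes Mki67 and Top2a together, and fewer than 5 of the plasma cell gene Jchain. Among 11214 bone marrow cells of 2 single-cell RNA sequencing libraries, 1455 met this rule, 338 of 4839 cells in the library from Listeria-challenged mice and 1117 of 6375 cells in the library from naive mice. Transcripts were counted as unique molecular identifiers (UMIs), each marking 1 captured RNA molecule, and a barcode was kept as a cell with at least 2500 UMIs, at least 500 genes and at most 10% mitochondrial UMIs. The members were thus chosen by their measured counts of these 7 genes, so the levels of these 7 genes, and the contrast of dividing cells with the 315 cells of the same B-lineage gate under 3 division transcripts, are descriptions. The cells under 3 division transcripts, 50 in the Listeria and 265 in the naive library, are called resting below for that reason alone.

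B cells are made in the bone marrow. Progenitors rearrange the immunoglobulin heavy chain gene with the Rag1 and Rag2 recombinase, and a heavy chain that folds with the surrogate light chain, built from the Vpreb and Igll1 proteins, forms the pre-B cell receptor with the signalling chains Cd79a and Cd79b. Signals from that receptor and from interleukin 7 drive a burst of division of large pre-B cells, with cyclin D3 as the D-type cyclin on which it depends, and the cells then stop dividing and rearrange a light chain gene.

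Both groups were wild-type C57BL/6J mice with an age of 6 to 8 weeks given. The Listeria group had been challenged with Listeria monocytogenes, an intracellular bacterium, and was sampled 6 weeks afterwards, and the naive group was untreated. Marrow came from femora and tibiae with red cells lysed, and the labels call the sampled cells haematopoietic stem cells without giving a sort gate or the number of mice pooled. The names of the deposited files refer to a wild type for the naive and a knockout for the Listeria library, against labels that give wild type for both. The labels were followed, and a difference of genotype, of age at sampling, or of how the cells were collected cannot be told apart from the challenge. With 1 library per group there is no replicate and no test. Every value below compares these libraries and not the conditions, and every interval is a 95% interval that covers counting error only.

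The libraries held 43895966 UMIs for Listeria and 64619150 for naive. Dividing early B-lineage cells had a median of 10635 UMIs and 3115.5 genes in the Listeria library and 10503 UMIs and 3075 genes in the naive library, so their depth was close between libraries. Resting cells were shallower, with medians of 4667 UMIs for Listeria and 4873 for naive. There were 14 barcodes kept as cells in both libraries, among them 2 dividing cells of the Listeria and 4 of the naive library, and 0 barcodes fell in both dividing gates.

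The cells matched their name in Cd79a and Pax5, genes that the rule did not use. For shares of cells at equal depth, cells with at least 5000 UMIs, 325 Listeria and 1050 naive dividing cells, were thinned to that number and the rule was applied again to the thinned counts, which 282 Listeria and 946 naive cells met. Thinning put 13 Listeria and 72 naive dividing cells under the division threshold and so among the thinned resting cells. After thinning, Cd79a had a UMI in 99.3% (97.5 to 99.9) of 282 Listeria and 98.8% (97.9 to 99.4) of 946 naive dividing cells. In cells outside both gates the share was 1.36% for Listeria and 4.62% for naive. That share is not a level of free RNA alone, since single cells held up to 7 Cd79a UMIs in the Listeria and 18 in the naive library. Pax5, the factor that commits cells to the B lineage, had a UMI in 59.9% of Listeria and 57.1% of naive dividing cells, against 0.17% of those other cells in the Listeria and 0.780% in the naive library. Hist1h1b and Pclaf were given beforehand as markers of these cells, so their shares are descriptions. The linker histone gene Hist1h1b was seen in 87.2% of Listeria and 86.6% of naive dividing cells. Of the other cells, 7.69% in the Listeria and 9.49% in the naive library had it. Pclaf, a partner of the replication clamp, was seen in 90.8% of Listeria and 92.2% of naive dividing cells. Dividing cells outside the B-lineage gate had Hist1h1b in 62.9% of Listeria and 63.1% of naive cells. They had Pclaf in 41.9% of Listeria and 46.2% of naive cells.

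Of genes of later stages, Il2ra was absent, Ms4a1 rare and Igkc no more frequent than in the cells outside both gates, while Dntt was frequent. Dntt, the polymerase that adds bases at heavy chain joints, had a UMI in 92.9% (89.3 to 95.6) of Listeria and 95.3% (93.8 to 96.6) of naive dividing cells, and in 5.42% of the other Listeria and 12.4% of the other naive cells. Il2ra, which marks a later pre-B stage, was seen in 0 of 282 Listeria and 0 of 946 naive dividing cells, which allows a share of cells with a UMI of up to 1.06% for Listeria and 0.317% for naive. Ms4a1, the mature B cell gene for CD20, was seen in 0.355% of Listeria and 0.211% of naive dividing cells, against 0.17% of the other Listeria and 0.640% of the other naive cells. The immunoglobulin kappa constant gene Igkc was seen in 12.8% of Listeria and 43.7% of naive dividing cells. Of the other cells, 14.6% in the Listeria and 56.0% in the naive library had a UMI of it. Single ones of those other cells held up to 2668 Igkc UMIs in the Listeria and 2935 in the naive library, so their share is not a free RNA level. The source of Igkc in the dividing cells was not tested, and no expression is read from it.

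Genes of other lineages differed in level in the summed counts. Values are counts of the cells summed, scaled to 1e6 UMIs (CPM). A set of 4 plasma cell genes came to 23.4 CPM in Listeria and 28.3 CPM in naive dividing cells, and 4 mature B genes to 10.8 CPM in each library. In cells outside both gates the mature B genes were lower, at 3.15 CPM for Listeria and 5.11 CPM for naive. Free RNA held 7.48 CPM of them in the Listeria and 2.91 CPM in the naive library. The 6 T and NK cell genes came to 15.3 CPM in Listeria and 29.1 CPM in naive dividing cells, and the 5 megakaryocyte genes to 9.22 CPM in Listeria and 13.5 CPM in naive dividing cells. The 9 myeloid genes came to 1334 CPM in Listeria and 77.8 CPM in naive dividing cells, but 96.6% of the 5065 Listeria UMIs lay in 3 cells. The 5 erythroid genes came to 7.11 CPM in Listeria and 544 CPM in naive dividing cells, and 98.7% of the 6817 naive UMIs lay in 3 cells. No doublet caller was run, and 20 Listeria and 132 naive dividing cells held at least 3 UMIs of other lineages. The 4 dendritic cell genes came to 201 CPM in Listeria and 231 CPM in naive dividing cells, below free RNA of 293 CPM in the Listeria and 453 CPM in the naive library, and Cst3, which many cell types express, gave 758 of 763 Listeria and 2845 of 2889 naive UMIs. The part of pairs of cells in 1 droplet was not tested.

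Few cells sat at the thresholds. The division sum was 3, just inside, in 4 Listeria and 44 naive gated cells, and 2, just outside, in 8 Listeria and 35 naive gated cells. It reached 15 or more in 256 of 388 Listeria gated cells (66.0%) and in 782 of 1382 naive gated cells (56.6%), and was 0 in 33 Listeria and 145 naive gated cells. The B-lineage sum was 10 in 2 Listeria and 3 naive dividing cells, and 9 in 0 Listeria and 3 naive cells with at least 3 division transcripts.

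**Figure D1:**
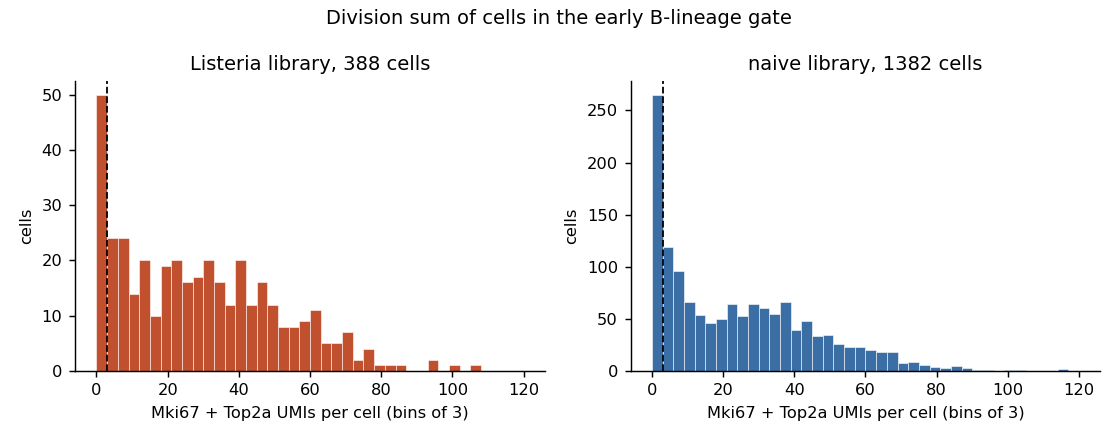
The sum of Mki67 and Top2a UMIs per cell is plotted for cells of the B-lineage gate, with the Listeria library on the left and the naive library on the right, and the threshold of 3 UMIs marked. Most gated cells lie well above the threshold in both libraries, with medians among dividing cells of 30 for Listeria and 27 for naive.

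Early B-lineage cells were a smaller share of the Listeria library, and most of them were dividing in both. Dividing early B-lineage cells made up 6.98% (6.28 to 7.74) of kept Listeria cells and 17.5% (16.6 to 18.5) of kept naive cells. Within the B-lineage gate the dividing share was 87.1% (83.4 to 90.3), 338 of 388 cells, in the Listeria library and 80.8% (78.6 to 82.9), 1117 of 1382 cells, in the naive library. With each cell thinned to 5000 UMIs it was 89.8% (85.9 to 92.9) for Listeria and 83.1% (80.8 to 85.3) for naive. The libraries therefore differed in how many gated cells they held far more than in what share of those divided. Outside the B-lineage gate 13.1% of Listeria and 9.21% of naive cells had at least 3 division transcripts, and after thinning 9.98% of Listeria and 8.30% of naive cells did. Dividing cells of both libraries were thus much more frequent inside the gate than outside it. Of all dividing cells, B-lineage cells were 36.7% (33.6 to 39.9) in the Listeria library and 70.9% (68.6 to 73.1) in the naive library. How the cells of each library were collected is not given, and its part in these shares cannot be told apart from the groups.

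Dividing over resting cells, 5797 genes reached 20 CPM in either gate and 50 UMIs over both gates, in each library. A gene was called when its ratio passed 1.5-fold in the same direction in both libraries, which held for 643 genes, 11.1%, as higher and for 581 genes, 10.0%, as lower. The rule chose the cells on this contrast, so nothing is read from the members' counts against these shares. Higher calls were 52.5% of all calls, but 79.7% with TMM factors, 73.4% with median-ratio size factors and 79.6% with cells thinned to 5000 UMIs. TMM factors moved the median of all genes by 0.26 on the log2 scale in the Listeria and 0.21 in the naive library. The calls of lower genes thus depend on the scaling and on depth, more so than those of higher genes.

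Replication-dependent histone genes, which supply new chromatin in S phase, rose throughout, all 22 measured of 24 listed in both libraries, with a median log2 ratio of 3.11 in the Listeria and 2.70 in the naive library. Over all measured genes the median was -0.05 for Listeria and -0.09 for naive. Hist1h1b had 1626 CPM in dividing and 21.1 CPM in resting cells of the Listeria library, and 1760 CPM in dividing and 81.0 CPM in resting cells of the naive library. Its log2 ratio was 6.27 (5.14 to 7.71) for Listeria and 4.44 (4.18 to 4.71) for naive. Hist1h2ab, an H2A gene at chr13:23751126-23751598 (plus strand, GRCm38), had 531 CPM in dividing and 17.6 CPM in resting Listeria cells, and 940 CPM in dividing and 32.1 CPM in resting naive cells. Most of these transcripts end in a stem-loop in place of a poly(A) tail, and their copies are near-identical in sequence, so a level of a single histone gene is uncertain where reads could be split among copies.

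Genes of G2 phase and mitosis rose almost as a block, 51 of 52 measured of 54 listed. The median log2 ratio was 2.93 for Listeria and 3.45 for naive. Kif11, the motor that pushes spindle poles apart, had 272 CPM in dividing and 0 UMIs in resting cells of the Listeria library. Set against 3 counts, that is a log2 ratio of at least 4.69. In the naive library Kif11 had 256 CPM in dividing and 4.69 CPM in resting cells, a log2 ratio of 5.77 (4.73 to 7.09). Ccna2, the cyclin of S and G2 phase, had 170 CPM in dividing and 3.52 CPM in resting Listeria cells, and 158 CPM in dividing and 5.36 CPM in resting naive cells. Cdc20, which activates the anaphase-promoting complex, had log2 ratios of 3.36 (1.80 to 5.64) for Listeria and 3.07 (2.41 to 3.83) for naive. Among the 12 highest genes outside the rule, Ccna2, Cdk1, Esco2, Fbxo5, Hmmr, Kif11, Kif4, Ncapg and Nusap1 serve the cell cycle, chromosomes or the spindle, and Hist1h1b, Hist1h2ab and Hist1h3c are histones. Pttg1, securin, was the measured member that was not called, with 29.2 CPM in dividing and 56.3 CPM in resting Listeria cells, and 28.8 CPM in dividing and 24.1 CPM in resting naive cells.

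Promoters of 2 mitotic genes are shown because a pair of sequence elements recurs in this group. In the 300 bases from 250 before to 50 after each start in RefSeq (GRCm38.p6), the cell cycle homology region (CHR, TTTGAA or TTTAAA) and the CCAAT box occurred together, on either strand, in 36 of 51 promoters of the 47 mitotic genes matched, 70.6%. They did so in 10.7% of all 32851 promoters. The CHR is the element bound by the DREAM and B-Myb complexes. Capitals mark both elements in the 200 bases before the start of Ccnb1 (cyclin B1, chr13:100786487-100786686, minus strand) and Cdc20 (chr4:118437344-118437543, minus strand), written 5′ to 3′ along the gene. In Ccnb1 the CHR starts 42 bases before the start site and the CCAAT boxes 99 and 67 bases before it. In Cdc20 the CHR starts 18 bases before it and the CCAAT boxes 53 and 8.
Ccnb1: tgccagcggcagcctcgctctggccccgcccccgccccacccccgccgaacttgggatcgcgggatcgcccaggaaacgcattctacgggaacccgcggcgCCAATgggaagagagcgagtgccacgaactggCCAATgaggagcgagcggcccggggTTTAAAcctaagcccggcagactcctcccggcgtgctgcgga
Cdc20: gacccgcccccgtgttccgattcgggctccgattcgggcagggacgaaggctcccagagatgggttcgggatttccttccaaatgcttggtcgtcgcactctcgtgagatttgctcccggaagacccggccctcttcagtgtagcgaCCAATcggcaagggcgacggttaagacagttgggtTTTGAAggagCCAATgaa

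DNA replication genes also rose, by less than the mitotic genes. Of 46 measured of 47 listed, 42 rose in both libraries, with a median log2 ratio of 1.78 for Listeria and 1.45 for naive. Rrm2, the regulated subunit of the enzyme that makes deoxynucleotides, had 316 CPM in dividing and 24.6 CPM in resting Listeria cells, and 253 CPM in dividing and 24.8 CPM in resting naive cells. Mcm5, a subunit of the replicative helicase, had 257 CPM in dividing and 91.4 CPM in resting Listeria cells, and 228 CPM in dividing and 113 CPM in resting naive cells. Its log2 ratio was 1.49 (0.93 to 2.11) for Listeria and 1.01 (0.79 to 1.24) for naive. Pcna, the replication clamp, had a log2 ratio of 1.89 (1.44 to 2.38) for Listeria and 1.29 (1.12 to 1.47) for naive. Gins4, Mcm2 and Pold1 were among the members not called. Mcm2 had log2 ratios of 0.80 (0.18 to 1.48) for Listeria and 0.49 (0.21 to 0.78) for naive. Resting cells thus still held replication transcripts.

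Promoters of 2 replication genes are shown for their matches to the E2F site, the element of the E2F family that switches on S phase genes. One of TTTGGCGC, TTTGCCGC, TTTCGCGC or TTTCCCGC, on either strand, lay in 16 of 44 promoters of the 37 replication genes matched, 36.4%, and in 2.26% of all promoters. Both sequences run over 200 bases before the start with the matches in capitals. Mcm5 (chr8:75109309-75109508, plus strand) has 2 overlapping matches that start 153 and 149 bases before the start site, and Cdc6, a licensing factor (chr11:98907951-98908150, plus strand), has 1 at 138, on the opposite strand. A match describes the letters and does not show binding in these cells.
Mcm5: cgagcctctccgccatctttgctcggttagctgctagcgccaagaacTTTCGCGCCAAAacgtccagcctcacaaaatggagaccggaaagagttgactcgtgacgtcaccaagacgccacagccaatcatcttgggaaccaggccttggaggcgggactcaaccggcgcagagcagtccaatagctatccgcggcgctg
Cdc6: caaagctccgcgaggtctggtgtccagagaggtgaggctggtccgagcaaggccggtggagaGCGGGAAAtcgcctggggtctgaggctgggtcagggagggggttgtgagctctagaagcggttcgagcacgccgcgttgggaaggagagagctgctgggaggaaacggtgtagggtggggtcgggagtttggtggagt

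**Figure D2:**
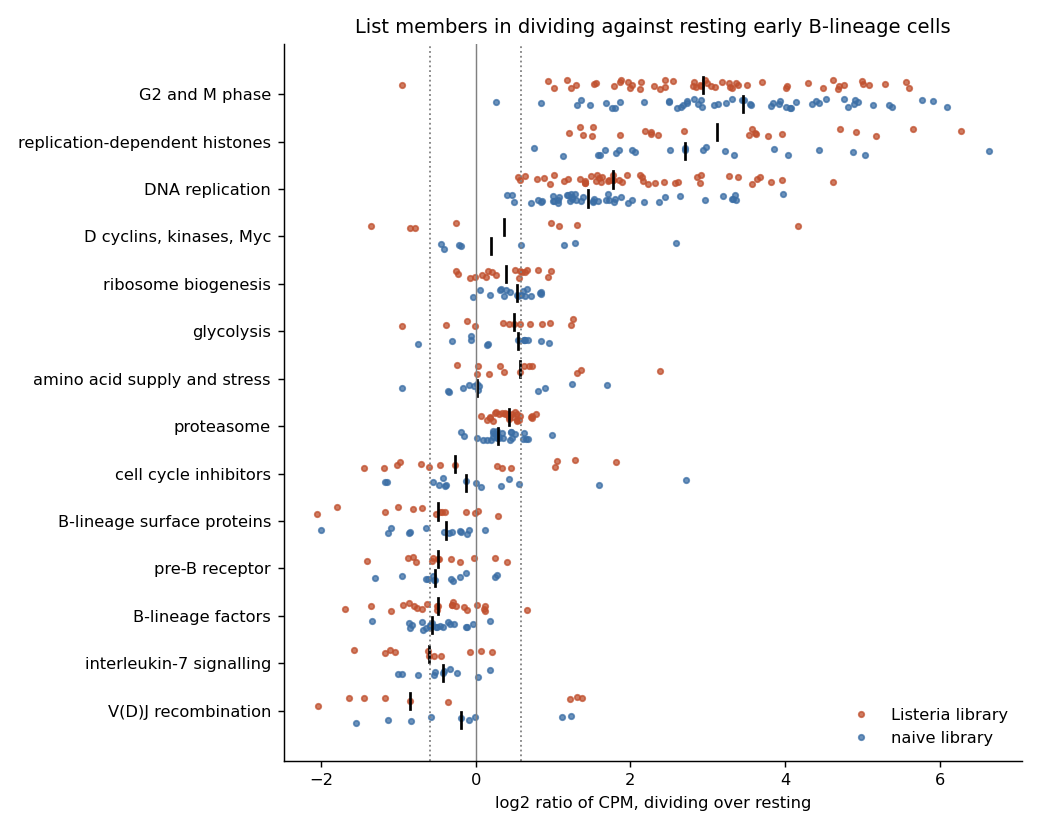
Log2 ratios of dividing over resting cells are plotted for each measured gene of the gene groups, with Listeria in red above naive in blue, the median of each group as a black line and 1.5-fold as dotted lines. Histone, mitotic and replication genes have medians of 3.11, 2.93 and 1.78 for Listeria and 2.70, 3.45 and 1.45 for naive. The mitotic gene Pttg1 lies below 0 for Listeria. The pre-B cell receptor group has medians of -0.49 for Listeria and -0.53 for naive.

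The cyclin D, E2F and Myc group split. Ccnd3, cyclin D3, rose, with 506 CPM in dividing and 204 CPM in resting Listeria cells, and 401 CPM in dividing and 182 CPM in resting naive cells. Its log2 ratios were 1.31 (0.93 to 1.71) for Listeria and 1.14 (0.96 to 1.32) for naive. Its partner kinase Cdk4 and the activator E2F genes E2f2 and E2f3 rose with it, 4 of 8 measured of 10 listed, and none fell. Ccnd2, cyclin D2, was not called, with log2 ratios of -1.35 (-1.84 to -0.83) for Listeria and -0.40 (-0.69 to -0.11) for naive. After thinning, Ccnd3 had a UMI in 81.9% of Listeria and 79.7% of naive dividing cells, Ccnd2 in 22.7% of Listeria and 19.2% of naive ones, and Ccnd1 in 1.42% of Listeria and 1.69% of naive ones. In cells outside both gates of the Listeria library the shares were 41.3% for Ccnd3, 53.2% for Ccnd2 and 16.6% for Ccnd1, and in those of the naive library 39.8%, 49.4% and 18.9%. In both libraries the dividing B-lineage cells thus had a UMI of Ccnd3 more often, and of Ccnd1 and Ccnd2 less often, than those cells. Thinned resting B-lineage cells had Ccnd3 in 78.1% of Listeria and 60.4% of naive cells. For Ccnd2 their shares were 34.4% and 30.7%, and for Ccnd1 3.13% and 4.69%. Dividing cells outside the gate had Ccnd3 in 54.2% of Listeria and 50.5% of naive cells. For Ccnd2 their shares were 35.3% and 38.8%, and for Ccnd1 10.2% and 12%. Against cells outside both gates, these resting cells and dividing cells outside the gate went the same way for Ccnd3, Ccnd2 and Ccnd1 in both libraries. The direction is thus not particular to dividing B-lineage cells. Myc had 24.5 CPM in dividing and 42.2 CPM in resting Listeria cells and 36.5 CPM in dividing and 42.2 CPM in resting naive cells, and was not called.

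Of genes that restrain division 2 were called higher and 2 lower, of 15 measured of 16 listed. Btg1, an antiproliferative gene, fell, with 324 CPM in dividing and 883 CPM in resting Listeria cells, and 348 CPM in dividing and 767 CPM in resting naive cells. Trp53inp1, a target of p53, fell by 1.19 (interval -1.71 to -0.63) on the log2 scale for Listeria and by 1.17 (-1.40 to -0.94) for naive. With cells thinned, Btg1 had log2 ratios of -0.67 for Listeria and -0.50 for naive, and Trp53inp1 of -0.16 for Listeria and -0.52 for naive. Cdkn2c, the kinase inhibitor p18, and Rbl1, the pocket protein p107, rose, Rbl1 with log2 ratios of 1.82 (0.68 to 3.28) for Listeria and 1.59 (1.05 to 2.18) for naive. Cdkn1b, the inhibitor p27, was not called, with -0.71 (-1.05 to -0.35) for Listeria and -0.39 (-0.56 to -0.21) for naive.

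Of the recombination genes, 3 of 9 measured of 14 listed fell and 2 rose. Rag1 (chr2:101638282-101649501, minus strand, GRCm38) was among the 12 lowest genes of the whole comparison. It had 102 CPM in dividing and 419 CPM in resting cells of the Listeria library, and 93.3 CPM in dividing and 272 CPM in resting cells of the naive library. It fell by 2.03 on the log2 scale (interval -2.33 to -1.73) for Listeria and by 1.54 (-1.71 to -1.38) for naive, and with cells thinned by 0.99 for Listeria and 1.17 for naive. The share of thinned cells with a Rag1 UMI was 31.6% (26.2 to 37.3) in dividing and 50% (31.9 to 68.1) in resting Listeria cells, and 33.0% (30.0 to 36.1) in dividing and 49.0% (41.7 to 56.3) in resting naive cells, against 0.397% of Listeria and 1.25% of naive cells outside both gates. In the naive library the intervals of dividing and resting cells did not overlap, and in the Listeria library, with 32 resting cells, they did. With the gates taken from full counts, an alternative added after seeing the data, the resting cells were 23 in the Listeria and 129 in the naive library, and the share was 30.8% (25.8 to 36.1) in dividing and 56.5% (34.5 to 76.8) in resting Listeria cells, and 33.0% (30.1 to 35.9) in dividing and 51.2% (42.2 to 60.1) in resting naive cells. The end-joining genes Lig4 and Xrcc6 fell with it. Xrcc6, the Ku70 subunit, had log2 ratios of -1.17 (-1.52 to -0.81) for Listeria and -0.84 (-1.01 to -0.67) for naive. Rag2 was not called, with -0.30 (-1.50 to 1.20) for Listeria and 0.79 (0.01 to 1.69) for naive. Dntt was not called either, with -0.35 (-0.51 to -0.19) for Listeria and -0.09 (-0.16 to -0.01) for naive. The members that rose, Hmgb1 and Tdp1, also serve outside recombination, Hmgb1 as an abundant chromatin protein and Tdp1 in the repair of topoisomerase damage.

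Of pre-B cell receptor genes, 0 were called higher and 2 lower, of 13 measured of 16 listed. Their median log2 ratio was -0.49 for Listeria and -0.53 for naive. A call needs both libraries, so a gene not called may still pass 1.5-fold in a single library. Cd79a had 1192 CPM in dividing and 1213 CPM in resting Listeria cells, and 1226 CPM in dividing and 1498 CPM in resting naive cells. Vpreb2, a near copy of Vpreb1, fell, with 125 CPM in dividing and 229 CPM in resting Listeria cells, and 134 CPM in dividing and 261 CPM in resting naive cells, and so did Dok3, an adaptor of receptor signalling. Blnk, the linker below the receptor, was not called, with log2 ratios of -0.32 (-0.54 to -0.09) for Listeria and -0.53 (-0.63 to -0.44) for naive. Igll1, which the rule used, had 611 CPM in dividing and 872 CPM in resting Listeria cells, and 625 CPM in dividing and 773 CPM in resting naive cells.

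Transcription factors of the B lineage had 0 higher and 6 lower calls of 23 measured of 24 listed. Sox4, needed for early B cell survival, had 414 CPM in dividing and 749 CPM in resting Listeria cells, and 403 CPM in dividing and 730 CPM in resting naive cells, log2 ratios of -0.85 (-1.06 to -0.64) for Listeria and -0.86 (-0.95 to -0.76) for naive. Lef1, a Wnt pathway factor, Irf4, a factor of pre-B cell differentiation, Id2, Klf3 and Zeb2 also fell. With cells thinned, Lef1 had log2 ratios of 0.70 for Listeria and -0.14 for naive, so its call ended there. Under the same thinning Id2 was at 0.18 for Listeria and 0.24 for naive, Zeb2 at 0.057 for Listeria, and the list's median at 0.19 for Listeria, so these signs turned. Among cells with at least 5000 UMIs, gated on full counts, Lef1 was at -0.05, Id2 at -1.05, Zeb2 at -0.37 and the median at -0.05 for Listeria. Pax5 was not called, with -0.50 (-0.84 to -0.15) for Listeria and -0.49 (-0.65 to -0.34) for naive.

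Interleukin 7 pathway genes had 0 higher and 3 lower calls of 11 measured of 16 listed. Il7r, the receptor's own chain, had 89.0 CPM in dividing and 200 CPM in resting Listeria cells, and 98.8 CPM in dividing and 166 CPM in resting naive cells. The shared receptor chain Il2rg and the pro-apoptotic Bcl2l11 fell as well, but with cells thinned Il2rg was at 0.21 and Bcl2l11 at 0.38 in the Listeria library, and the list's median at 0.27. Among Listeria cells with at least 5000 UMIs, gated on full counts, Il2rg was at -0.11, Bcl2l11 at -0.66 and the median at -0.50. After thinning, the share of cells with an Il7r UMI was 32.6% (27.2 to 38.4) in dividing and 37.5% (21.1 to 56.3) in resting Listeria cells, and 37.1% (34.0 to 40.3) in dividing and 38.5% (31.6 to 45.8) in resting naive cells, so the intervals of dividing and resting cells overlapped at equal depth. With the gates from full counts they overlapped too, at 30.5% (25.5 to 35.8) in dividing and 43.5% (23.2 to 65.5) in resting Listeria cells, and 35.9% (33.0 to 38.9) in dividing and 44.2% (35.5 to 53.2) in resting naive cells. Surface genes had 0 higher and 5 lower calls of 14 measured of 18 listed. Cd72, a co-receptor that restrains receptor signals, had 44.2 CPM in dividing and 183 CPM in resting Listeria cells, and 48.5 CPM in dividing and 103 CPM in resting naive cells, and Cd74, Cd9, Flt3 and Ptprc fell with it.

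Among the 12 lowest genes, Kdm5b, a demethylase of histone H3 lysine 4, had 17.6 CPM in dividing and 165 CPM in resting Listeria cells, and 28.7 CPM in dividing and 116 CPM in resting naive cells. It fell by 3.23 on the log2 scale (interval -3.79 to -2.66) for Listeria and by 2.01 (-2.28 to -1.74) for naive. Ltb, which encodes lymphotoxin beta, fell by 2.34 (-3.07 to -1.56) for Listeria and by 1.78 (-2.07 to -1.49) for naive. Lax1, a membrane adaptor that dampens lymphocyte receptor signals, fell by 1.62 (-2.25 to -0.93) for Listeria and by 1.63 (-1.90 to -1.35) for naive. The other genes of this set were B3gnt8, Dst, Evi2a, Kdm7a, Mirt1, Pqlc3, Selenop and Tubb2b. In the Listeria library B3gnt8 was at 1.01 among cells with at least 5000 UMIs and at 0.77 after thinning, and Evi2a at 0.030 after thinning.

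Of the growth lists, ribosome biogenesis had 5 higher and 0 lower of 18 measured, Fbl, Gar1, Nhp2, Nolc1 and Nop58, with medians of 0.39 for Listeria and 0.54 for naive. Fbl, the methylase fibrillarin, had 277 CPM in dividing and 183 CPM in resting Listeria cells, and 256 CPM in dividing and 170 CPM in resting naive cells. Glycolysis had 3 higher, Gapdh, Ldha and Pgam1, and 1 lower, Hk1, of 13 measured. Amino acid and one-carbon genes had 3 higher of 13 measured, the mitochondrial enzymes Mthfd2 and Shmt2 and the serine synthesis enzyme Psat1. Mthfd2 had 91.9 CPM in dividing and 17.6 CPM in resting Listeria cells, and 58.8 CPM in dividing and 18.1 CPM in resting naive cells. The proteasome had 3 higher of 27 measured and heat shock genes 2 of 12. With cells thinned, the Listeria ratios of Shmt2, Nhp2, Nolc1 and the proteasome gene Psmd1 were below 0, at -0.92, -0.13, -0.20 and -0.32, and that of Hk1 was at 0.56. Of the remaining lists, the interferon response had 0 higher and 1 lower of 12 measured, Ifitm3, and p53 targets 0 higher and 2 lower of 10, Sesn1 and Trp53inp1.

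Within the dividing cells the replication genes ran against the G2 and mitosis genes, while the histones ran with the G2 and mitosis genes. Over the 282 Listeria and 946 naive dividing cells thinned to 5000 UMIs, the summed replication genes had a median of 50 UMIs for Listeria and 45 for naive. The summed mitotic genes had 54 UMIs for Listeria and 53 for naive, and the histones 52 for Listeria and 73.5 for naive. Spearman's rho between replication and mitotic sums was -0.37 for Listeria and -0.36 for naive. Between histone and mitotic sums it was 0.50 for Listeria and 0.55 for naive. In dividing cells outside the gate, rho between replication and mitotic sums was 0.13 for Listeria and 0.11 for naive. These describe cells that share a library and a fixed depth. Mitotic UMIs outnumbered replication UMIs in 51.1% (45.1 to 57.0) of Listeria and 53.2% (49.9 to 56.4) of naive dividing cells. In cells outside both gates this share was 55.5% for Listeria and 61.9% for naive, so no share of cells in a phase is read from it. In resting cells the median was 11 replication UMIs in 23 Listeria and 14 in 129 naive cells gated on their full counts, against 4 in Listeria and 4 in naive cells outside both gates. With the gates applied again to thinned counts, which brought dividing cells into the resting gate, it was 32.5 in 32 Listeria and 23 in 192 naive resting cells.

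**Figure D3:**
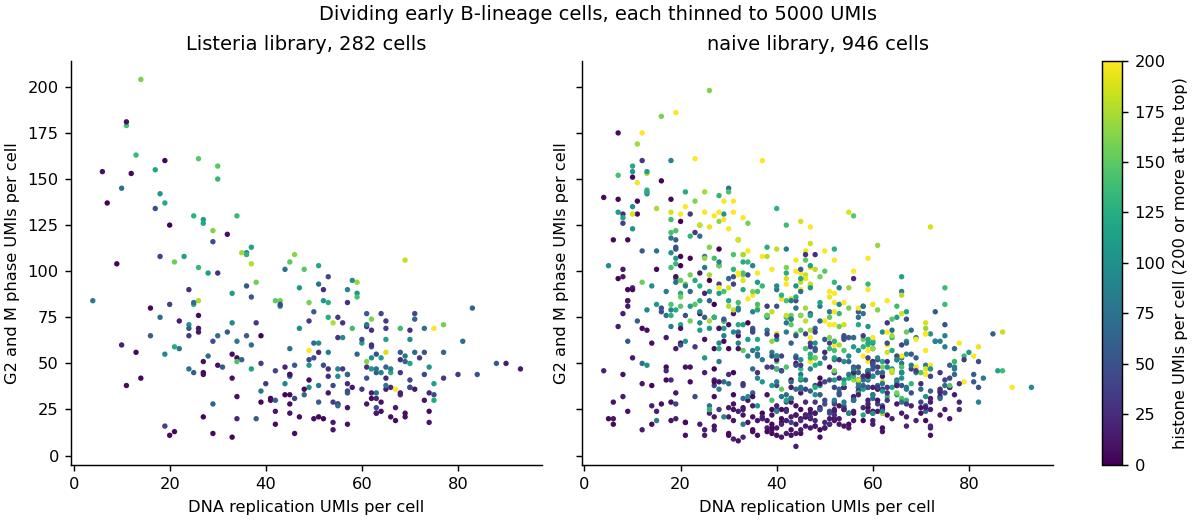
Each point is a dividing early B-lineage cell thinned to 5000 UMIs, with its replication UMIs on the horizontal and its G2 and mitosis UMIs on the vertical axis, coloured by histone UMIs, for the Listeria library on the left and the naive library on the right. Cells spread from many replication and few mitotic UMIs to the reverse, and histone UMIs are low where mitotic UMIs are low.

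Dividing cells were placed in 4 ranges by the mitotic share of replication plus mitotic UMIs, with limits at 0.387, 0.519 and 0.701. A range is a slice of a continuous score, not a cell type. The ranges held 66, 81, 72 and 63 Listeria cells and 241, 226, 235 and 244 naive cells, from low to high. Ccnb1 averaged 0.121, 0.284, 0.458 and 1.32 UMIs per cell in the Listeria library and 0.0830, 0.204, 0.357 and 1.11 in the naive library. Mcm5 ran the other way, with 1.74, 1.79, 1.07 and 0.603 for Listeria and 1.89, 1.47, 0.919 and 0.533 for naive. Both genes are part of the score, so their order follows from it. Histones are not part of it, and averaged 29.5, 62.3, 75.5 and 80.0 UMIs per cell in the Listeria library and 38.6, 88.4, 107 and 104 in the naive library, lowest in the first range in both. Igll1 ran in no such order and averaged 3.48, 3.31, 3.26 and 3.79 UMIs for Listeria and 3.56, 3.13, 2.93 and 3.72 for naive. Il7r, which is not used by the rule or the score, averaged 0.455, 0.333, 0.472 and 0.952 UMIs for Listeria and 0.469, 0.456, 0.506 and 0.861 for naive, so its mean was highest in the last range in both libraries.

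**Figure D4:**
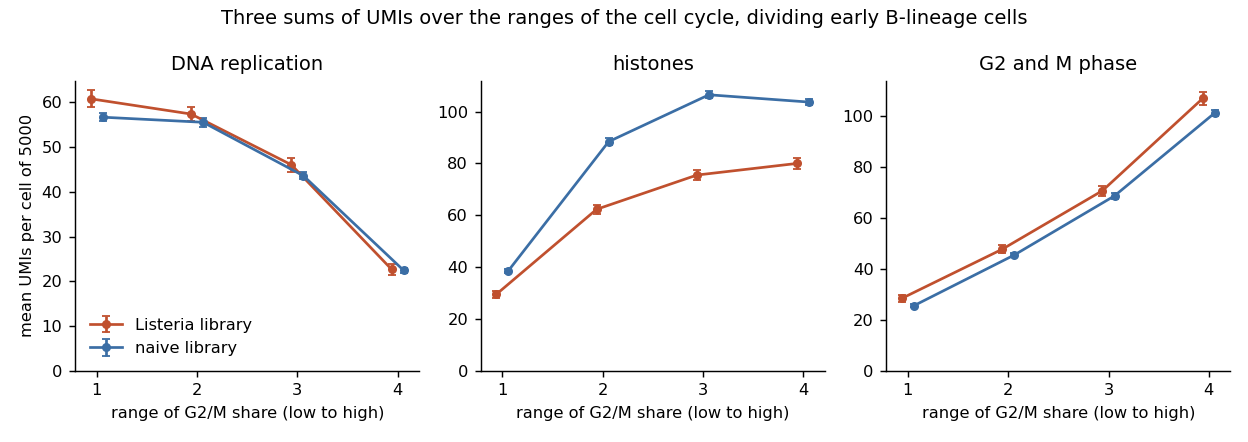
Mean UMIs per thinned dividing cell are plotted in the 4 ranges of the mitotic share, low to high, for the Listeria and the naive library, with exact Poisson 95% intervals. Histone means are lower in the Listeria library in each range, 29.5 against 38.6 in the first and 80.0 against 104 in the last.

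Between the libraries, dividing early B-lineage cells differed in few genes. Under the same minimums 5704 genes were measured. Of these, 39 were past 1.5-fold higher in Listeria, 0.684%, and 63 past 1.5-fold lower, 1.10%. Among the genes of the cell's identity and its cycle, 0 of 13 pre-B cell receptor genes, 0 of 21 B-lineage transcription factors, 0 of 8 recombination genes, 0 of 11 interleukin 7 pathway genes, 0 of 13 surface genes, 0 of 46 replication genes and 0 of 52 mitotic genes passed the fold in either direction. The median log2 ratio of Listeria over naive was 0.03 for the receptor genes, 0.05 for the transcription factors, 0.01 for recombination, -0.21 for interleukin 7, -0.05 for surface genes, 0.16 for replication and 0.08 for mitosis, against 0.04 over all measured genes. Rag1 had 102 CPM in Listeria and 93.3 CPM in naive dividing cells, a log2 ratio of 0.13 (-0.04 to 0.30). Ccnd3 had 506 CPM in Listeria and 401 CPM in naive dividing cells, 0.33 (0.26 to 0.41), below the fold used. Of 14 measured inhibitors of the cycle 1 was lower, Tob1, an antiproliferative gene, with 20.5 CPM in Listeria and 30.9 CPM in naive dividing cells, -0.59 (-0.96 to -0.23). Of the light chain and later B list both measured genes were lower. Igkc, from which no expression is read, was at -2.56. Ltb, which passed the minimum through the naive library alone, had 15.3 CPM in Listeria and 27.1 CPM in naive dividing cells, -0.82 (-1.25 to -0.42). Of 12 measured interferon response genes Ifitm1 was lower and of 10 p53 targets Sesn2 was higher, each past the minimum through 1 library alone, and of 27 proteasome genes 0 passed the fold.

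Of the histones, 6 of 22 measured were lower in Listeria, 27.3% against 1.10% of all genes, and 0 higher. Their median log2 ratio was -0.34 in dividing cells, and 21 of 22 were below 0, all but Hist1h4d. Hist1h2ab had 531 CPM in Listeria and 940 CPM in naive dividing cells, a log2 ratio of -0.82 (-0.89 to -0.75). Hist1h2ae, another H2A gene (chr13:23570517-23571220, minus strand, GRCm38), had 1904 CPM in Listeria and 3025 CPM in naive dividing cells, -0.67 (-0.70 to -0.63). Hist1h4c, an H4 gene, had 26.9 CPM in Listeria and 51.8 CPM in naive dividing cells, -0.95 (-1.26 to -0.64). Hist1h2ap, Hist1h2bj and Hist1h3e were the others past the fold, at -0.68, -0.66 and -0.66. Hist1h1b differed less, with 1626 CPM in Listeria and 1760 CPM in naive dividing cells, -0.11 (-0.16 to -0.07), and Hist1h4d had 1034 CPM in Listeria and 981 CPM in naive dividing cells, 0.08 (0.02 to 0.13).

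The lower histone level was found in other cells of the Listeria library too. Summed over the list, histones had 11762 CPM in Listeria and 15326 CPM in naive dividing B-lineage cells, and 1027 CPM in Listeria and 1884 CPM in naive resting ones. Dividing cells outside the gate had 4899 CPM in the Listeria and 6931 CPM in the naive library, and cells outside both gates 951 CPM in the Listeria and 1322 CPM in the naive library. The median log2 ratio of Listeria over naive was -0.56 in dividing cells outside the gate and -0.95 in resting cells, so it is not particular to dividing B-lineage cells. Free RNA held 2639 CPM in the Listeria and 2401 CPM in the naive library. The difference was present in each of the 4 ranges of the mitotic share, with log2 ratios of the histone sum of -0.39, -0.50, -0.50 and -0.37, and of Hist1h2ab of -0.66, -1.05, -0.93 and -0.77. The histone variants H2afz and H2afx, chosen after their values were seen, were level. H2afz had 2183 CPM in Listeria and 2201 CPM in naive dividing cells, and H2afx 479 CPM in Listeria and 474 CPM in naive dividing cells. The part of transcript capture in the histone difference was not tested.

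Of genes of amino acid supply and its stress response 4 of 14 measured were higher in Listeria and 0 were lower, with a median log2 ratio of 0.38. Trib3 and Sesn2 passed the 20 CPM minimum through the Listeria library alone, so nothing is read from the count or the median. Trib3, a pseudokinase induced by the factor Atf4, had 27.1 CPM in Listeria and 10.4 CPM in naive dividing cells, a log2 ratio of 1.39 (1.00 to 1.77). Sesn2, a leucine sensor of the mTORC1 pathway, had 21.6 CPM in Listeria and 7.98 CPM in naive dividing cells, 1.44 (1.00 to 1.87). Eif4ebp1, the inhibitor of cap-dependent translation, had 108 CPM in Listeria and 55.9 CPM in naive dividing cells, 0.95 (0.77 to 1.12). Mthfd2 had 91.9 CPM in Listeria and 58.8 CPM in naive dividing cells, 0.64 (0.46 to 0.83). Asns, asparagine synthetase, was under the 20 CPM minimum, with 7.90 CPM in Listeria and 2.0 CPM in naive dividing cells, 1.99 (1.17 to 2.81). In dividing cells outside the B-lineage gate the list had a median of 0.43, and in resting cells 0.15.

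The promoter of Asns is shown for its match to the amino acid response element, to which Atf4 binds. The letters TGATGNAA, on either strand, lay in 4 of 17 promoters of the 15 list genes matched, 23.5%, those of Asns, Chac1, Slc7a11 and Trib3, and in 3.97% of all promoters. In the 200 bases before the Asns start (chr6:7693210-7693409, minus strand) the match, in capitals, starts 23 bases before the start site.
Asns: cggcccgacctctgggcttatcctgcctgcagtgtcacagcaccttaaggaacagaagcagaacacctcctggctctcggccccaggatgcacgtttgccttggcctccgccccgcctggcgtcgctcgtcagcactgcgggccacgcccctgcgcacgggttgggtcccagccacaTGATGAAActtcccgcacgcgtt

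Of 13 measured heat shock genes 2 were higher in Listeria, 15.4% against 0.684% of all genes, and 0 were lower. Hspa1a, the inducible Hsp70, had 75.6 CPM in Listeria and 24.4 CPM in naive dividing cells, a log2 ratio of 1.63 (1.39 to 1.87). Its near-identical copy Hspa1b had 26.6 CPM in Listeria and 11.6 CPM in naive dividing cells, 1.20 (0.82 to 1.58), and reads could be split between them. Hspa1b passed the minimum through the Listeria library alone, as did Hk2, so nothing is read from the heat shock or glycolysis counts. All 18 measured ribosome biogenesis genes were above 0, at most 0.42, with a median of 0.17 and 0 past the fold. Hk2, a hexokinase, was the 1 glycolysis gene past the fold, with 21.1 CPM in Listeria and 12.2 CPM in naive dividing cells.

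Immediate early genes, which respond within minutes to signals or to cell handling, were lower in Listeria for 4 of 19 measured, 21.1% against 1.10% of all genes, and all 19 were below 0. Egr1 had 90.1 CPM in Listeria and 143 CPM in naive dividing cells, a log2 ratio of -0.67 (-0.84 to -0.50). Ier3 had 30.0 CPM in Listeria and 61.7 CPM in naive dividing cells, -1.04 (-1.34 to -0.75), and Jund and Nr4a1 were at -0.67 and -0.62. Free RNA held more of each than the dividing cells did, for Egr1 411 CPM in the Listeria and 329 CPM in the naive library, and for Ier3 187 CPM in the Listeria and 311 CPM in the naive library. The list's median was -0.31 in dividing B-lineage cells, -0.23 in dividing cells outside the gate and 0.15 in resting cells, and these differences were not tested.

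Stem and progenitor genes were lower in Listeria for 4 of 10 measured, Egr1, Hlf, Lmo2 and Meis1, and 0 were higher. Hlf and Meis1 passed the minimum through the naive library alone, so nothing is read from the count, and Egr1 is in both lists. Hlf, a stem cell factor, had 5.27 CPM in Listeria and 21.5 CPM in naive dividing cells, a log2 ratio of -2.03 (-2.77 to -1.38). Lmo2, a bridging factor of haematopoiesis, had 24.8 CPM in Listeria and 57.6 CPM in naive dividing cells, -1.22 (-1.54 to -0.91). Free RNA held 96.8 CPM of Hlf in the Listeria and 104 CPM in the naive library. The 7 stem cell markers together came to 53.5 CPM in Listeria and 109 CPM in naive dividing cells, and 1 Listeria and 31 naive dividing cells held at least 10 UMIs of them. After thinning, a Hlf UMI was seen in 1.06% (0.220 to 3.08) of Listeria and 5.60% (4.22 to 7.26) of naive dividing cells, against 55.1% of Listeria and 55.7% of naive cells outside both gates. The part of pairs of cells in this difference was not tested. Without dividing cells that held other-lineage UMIs, Lmo2 was at -0.76 and Ier3 at -0.62.

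The neutrophil granule and antimicrobial genes Camp, Chil3, Elane, Lcn2, Ltf, Ngp, Retnlg, S100a8 and S100a9 were 9 of the 12 highest in Listeria, with Ngp at 130 CPM in Listeria and 3.67 CPM in naive dividing cells. In the Listeria library 3 cells held 96.6% of the myeloid marker UMIs. Without cells that held other-lineage UMIs Elane was at a log2 ratio of 0.27, while Camp was at 5.28. Elane was among the genes used to leave cells out, and Camp was not. The haemoglobin genes Hba-a1, Hba-a2, Hbb-bs and Hbb-bt were 4 of the 12 lowest, with Hbb-bs at 5.27 CPM in Listeria and 386 CPM in naive dividing cells, and 3 naive cells held 98.7% of the erythroid marker UMIs. The other low genes were, beside Hlf and Lmo2, Angpt1, Apoe, Cxcl10, Cxcl2, Ifitm1 and Nr4a2. Each had more free RNA than it had in dividing cells of either library, as Cxcl10 did with 5.53 CPM in Listeria and 20.8 CPM in naive dividing cells, beside free RNA of 113 CPM in the Listeria and 91.8 CPM in the naive library.

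**Figure D5:**
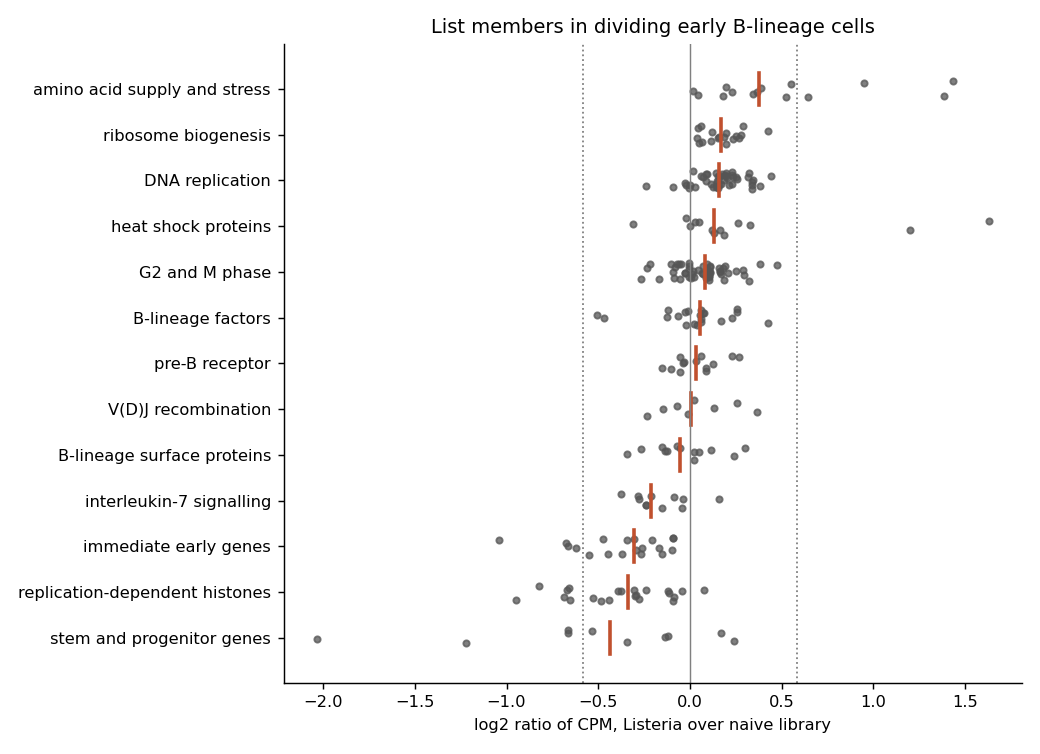
The log2 ratio of Listeria over naive in dividing early B-lineage cells is plotted for each measured gene of the gene groups, with each group's median as a line and 1.5-fold as dotted lines. Histones other than Hist1h4d lie below 0, and the histone median is -0.34. The pre-B cell receptor, replication and mitotic groups have medians of 0.03, 0.16 and 0.08. Nothing is read from the amino acid median of 0.38, since Trib3 and Sesn2 passed the minimum through the Listeria library alone.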

How the data were processed

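Single-cell RNA sequencing was deposited as 1 library per group. The authors deposited unnormalized UMI counts of each gene in every barcode, made with Cell Ranger 3.0.2 and mm10 per the submitters' processing notes. Gene positions are from GENCODE vM21 (GRCm38) and promoters from RefSeq (GRCm38.p6).

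Counts of 36 gene rows were added to another row of the same symbol, and 0 columns of per-sample values were left unused. Counts were summed over the cells of a gate and library and expressed per 1e6 UMIs (CPM). Intervals are exact Poisson for CPM, exact binomial on the split of counts for log2 ratios, and Clopper-Pearson for shares. A group with 0 UMIs was set to 3 counts over the group. Thinning drew 5000 UMIs per cell without replacement (seed 7). Free RNA is the profile of barcodes with 1 to 50 UMIs. No doublet caller was run. The ratio steps were tested on simulated counts. Python 3.11.15 with numpy 2.4.6, scipy 1.17.1 and pandas 2.3.3 was used, and for alternative factors R 4.3.3 with edgeR 4.0.16 (TMM) and DESeq2 1.42.0 (median-ratio). No test between groups was possible.

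Named genes were, for each comparison, the 12 highest and 12 lowest among measured genes, for dividing over resting by the smaller ratio of both libraries among called genes, leaving out mitochondrial, ribosomal protein, immunoglobulin, unnamed and sex-linked genes and the genes of the rule. Up to 6 members of each of 20 gene lists by level, and members past 1.5-fold, were named too, and other members were chosen as examples. The cells, lists and tests were chosen with earlier results of these data known. Alternatives covered the gates, cell filters, thinning, normalization, weighting of cells, gene minimums, the fold and subtraction of free RNA.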

Additional observations from a re-analysis of the deposited data

Results flagged for a closer look

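Genes whose ratio of dividing over resting cells passed 1.5-fold in opposite directions in the 2 libraries numbered 27, and 8 of them are named in the report. The difference between libraries was not tested. Of these 8, 7 are neutrophil genes. Camp had log2 ratios of 3.65 in the Listeria and -6.51 in the naive library, Lcn2 of 4.46 in Listeria and -4.42 in naive, Ngp of 5.21 in Listeria and -6.27 in naive, S100a8 of 4.59 in Listeria and -5.76 in naive, and S100a9 of 4.07 in Listeria and -5.33 in naive. Chil3 and Ltf had 0 UMIs in resting Listeria cells, so their Listeria ratios are at least 1.28 and 1.89 against 3 counts, and their naive ratios were -5.19 and -5.56. Of the myeloid marker UMIs, 96.6% lay in 3 cells among Listeria dividing cells and 94.8% in 3 cells among naive resting cells, where 1 cell held 3577 of 3791. Trib3 had a log2 ratio of 1.36 (-0.23 to 3.66) in the Listeria and -0.95 (-1.53 to -0.33) in the naive library, with 10.6 CPM in resting Listeria and 20.1 CPM in resting naive cells.

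Barcodes below the cell minimum, with at least 500 but fewer than 2500 UMIs, were not used in any comparison. Of 530 such barcodes in the Listeria library 7 met the rule for dividing early B-lineage cells, and of 1927 in the naive library 27 did.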

How the results depend on the processing

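No paired analysis was possible because each group has 1 library. Among the log2 ratios of named genes and lists under the alternatives, 3889 stayed within their limits, 399 moved and 23 changed sign, counting a change of sign only where the reported ratio was past 1.5-fold. List medians within 1.5-fold crossed 0 too, among them, for dividing over resting cells of the Listeria library after thinning, the B-lineage factors at 0.19, the pre-B cell receptor at 0.022, heat shock at -0.10 and the cyclin D, E2F and Myc group at -0.036. Thinning applies the gates again, which put 13 Listeria and 72 naive dividing cells into the resting gate. The dividing share of kept cells in the naive library was 16.1% with at least 5 division UMIs, 20.7% with at least 5000 UMIs per cell, 18.7% after thinning and 20.2% with at most 5% mitochondrial UMIs. Without cells of other-lineage UMIs, which took out most cells outside the gate, it was 31.0% for Listeria and 44.2% for naive. The dividing share of the gate was 74.4% for naive with at least 5 division UMIs, 93.4% for Listeria and 89.1% for naive with at least 5000 UMIs, and 83.1% for naive after thinning. Genes called for dividing over resting numbered 377 lower with at least 5000 UMIs, 343 higher and 88 lower after thinning, 996 higher and 254 lower with TMM factors, 323 lower with median-ratio factors, and 353 higher and 121 lower at 2-fold. Of the thinned calls 298 higher and 58 lower were among the main calls. Genes called for Listeria over naive numbered 124 higher and 100 lower after thinning, 37 lower without cells of other-lineage UMIs, 87 higher and 139 lower at 10 CPM, 196 higher and 446 lower with no CPM minimum, and 14 higher and 15 lower at 2-fold. The histone median of Listeria over naive ran between -0.46 and -0.34 and the amino acid median between 0.33 and 0.40.

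Signs changed in the dividing over resting ratios of the Listeria library, with its 50 resting cells. With at least 5000 UMIs, B3gnt8 was at 1.01 and Vpreb1 at 0.11. After thinning, the interleukin 7 list was at 0.27, B3gnt8 at 0.77, Bcl2l11 at 0.38, Ebf1 at 0.040, Evi2a at 0.030, Hk1 at 0.56, Id2 at 0.18, Igkc at 0.070, Il2rg at 0.21, Lef1 at 0.70, Nhp2 at -0.13, Nolc1 at -0.20, Psmd1 at -0.32, Shmt2 at -0.92, Vpreb1 at 0.10 and Zeb2 at 0.057, and Id2 was at 0.24 in the naive library. Without cells of other-lineage UMIs, the Listeria over naive ratios were 0.60 for Hba-a1, 1.01 for Hba-a2, 0.52 for Hbb-bs and 0.60 for Hbb-bt. The cause of these changes was not tested. Depth limits the resting cells most, since 27 of 50 Listeria and 136 of 265 naive resting cells held fewer than 5000 UMIs.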
